A study of Fukomys damarensis and Heterocephalus glaber and Cavia porcellus with 28 samples.

Results

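Heart and liver of 4 rodent species were compared for 39 listed genes of fatty acid oxidation and ketone body use. A gene was a member when the mouse Ensembl identifier of its row carried a listed symbol. Rows for 33 of the 39 were found among the 13928 genes of each tissue table, and all 33 were above the minimum value for testing in both tissues. They stayed above it when the species with the highest level was left out. Slc22a5, Acad9, Acad10, Eci2, Etfb and Acaa1a were not analysed here.

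Long-chain fatty acids enter cells, are joined to coenzyme A, and cross into mitochondria on carnitine. Inside, a repeating spiral of dehydrogenation, hydration, a further oxidation and thiolysis releases acetyl-CoA, and the electrons pass through the electron transfer flavoprotein to the respiratory chain. The adult heart takes most of its fuel from this route. The liver turns part of the acetyl-CoA into ketone bodies, which the heart and other tissues take up and oxidise. Peroxisomes shorten very long and branched chains and bile acid precursors. PPARalpha, encoded by Ppara, is the nuclear receptor that drives many of these genes.

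The groups were the naked mole-rat (13 to 17 months, 3 hearts and 4 livers), the Damaraland mole-rat (36 to 48 months, 5 hearts and 5 livers), the guinea pig (2.3 months, 3 hearts and 3 livers) and the mouse (2 months, 3 hearts and 2 livers). The mole-rats are long-lived subterranean rodents of Africa, and the guinea pig and mouse served as outgroups. No treatment or transgene was labelled, strains were not given in the labels, and all animals were male except the female of Damaraland liver replicate 4. Each library was one animal, and 10 of 18 animals gave both tissues. Damaraland heart replicate 1 and liver replicate 3 came from the same animal, labelled 48 months in heart and 36 months in liver. Age went with species, so age and species cannot be told apart.

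Libraries held 4089633 to 26985779 recovered reads in heart and 11220505 to 21467939 in liver, and naked mole-rat heart replicate 3 was the shallowest. The tissue labels held: Myh6, the cardiac myosin heavy chain, ranked 1 to 18 among all genes in the hearts, and Alb, encoding albumin, ranked 1 in every liver. Alb was also read in hearts, at a mean of 20193 scaled reads (reads over the size factor of their library) in the naked mole-rats, 2790 in the Damaraland mole-rats, 949 in the guinea pigs and 445 in the mice, beside 1915834 in naked mole-rat liver. Values below are the deposited variance-stabilised values, which run like log2 at high reads. The value of 0 reads was 5.36 in heart and 4.29 in liver. A 2-fold change from 1000 scaled reads moved the value by 0.95 in heart and 0.97 in liver, but from 100 scaled reads by only 0.68 and 0.80, so differences of rare genes are understated. No correction for gene length was contained in the values, so levels are compared between species for one gene and not between genes. A species' own gene model also sets how many reads a gene can collect, and its part in the differences was not tested.

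In heart, the mouse had the highest mean for 21 of the 33 genes, the Damaraland mole-rat for 7, the guinea pig for 5 and the naked mole-rat for 0. Over all genes tested the shares in that order of species were 28.0%, 23.2%, 23.3% and 25.5%. The guinea pig had the lowest mean for 14, the naked mole-rat for 10, the mouse for 6 and the Damaraland mole-rat for 3. Here the shares of all genes tested were 23.8%, 25.4%, 28.3% and 22.5%. A gene was called different between 2 species when limma gave an adjusted p under 0.05 and the values differed by at least 1. Naked mole-rat hearts were higher than guinea pig hearts for 3 genes and lower for 8, which is 33.3% of the members beside 33.0% of all genes tested (16.0% higher and 17.0% lower). Against mouse they were higher for 2 and lower for 14 (48.5% beside 38.2%, 18.0% higher and 20.2% lower). Naked and Damaraland mole-rats both stood below the mouse more often than above it. Damaraland hearts were higher than guinea pig hearts for 12 genes and lower for 5 (51.5% beside 29.7%, 14.7% higher and 15.1% lower), and against mouse the counts were 5 higher and 9 lower (42.4% beside 34.9%, 16.9% higher and 18.0% lower). Between the mole-rats, naked hearts were higher for 1 gene and lower for 11 (36.4% beside 29.4%, 14.2% higher and 15.2% lower). The outgroups differed at the most members, with 3 genes higher and 18 lower in guinea pig than in mouse (63.6% beside 32.1%, 15.2% higher and 16.9% lower). The median member differed by -1.20 between guinea pig and mouse, by -0.74 between naked mole-rat and mouse and by -0.56 between Damaraland mole-rat and mouse. It differed by 0.07 between naked mole-rat and guinea pig, by 0.40 between Damaraland mole-rat and guinea pig and by -0.46 between naked and Damaraland mole-rat. In each contrast the median of all genes tested lay within 0.05 of 0. These contrasts share libraries and are not independent of each other.

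Markers of heart cell types also differed between the species. Summed scaled reads of the cardiomyocyte markers (7 of 7 in the tables) ranged over 562803 to 1015458 in the naked mole-rats, 1390594 to 1850554 in the Damaraland mole-rats, 809584 to 902785 in the guinea pigs and 1131725 to 1227980 in the mice. Single markers went different ways: Myh6 was highest in Damaraland hearts (958792 on average, 565633 in mouse), and Ryr2, the calcium release channel, in naked mole-rat hearts (130122, 68408 in mouse). Fibroblast markers (5 of 6) were highest in guinea pig hearts at 44008 to 117742, against 10598 to 23551 in the naked mole-rats, 10186 to 42902 in the Damaraland mole-rats and 7817 to 10419 in the mice. The part of these marker differences in the gene counts was not tested, and in bulk tissue fewer cells of a type and less RNA per cell cannot be told apart. Without the shallow naked mole-rat heart replicate 3, naked hearts differed at 13 genes from guinea pig, 16 from mouse and 13 from Damaraland mole-rat. No share of all genes was computed for that fit, so these counts are not read against one.

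**Figure D1:**
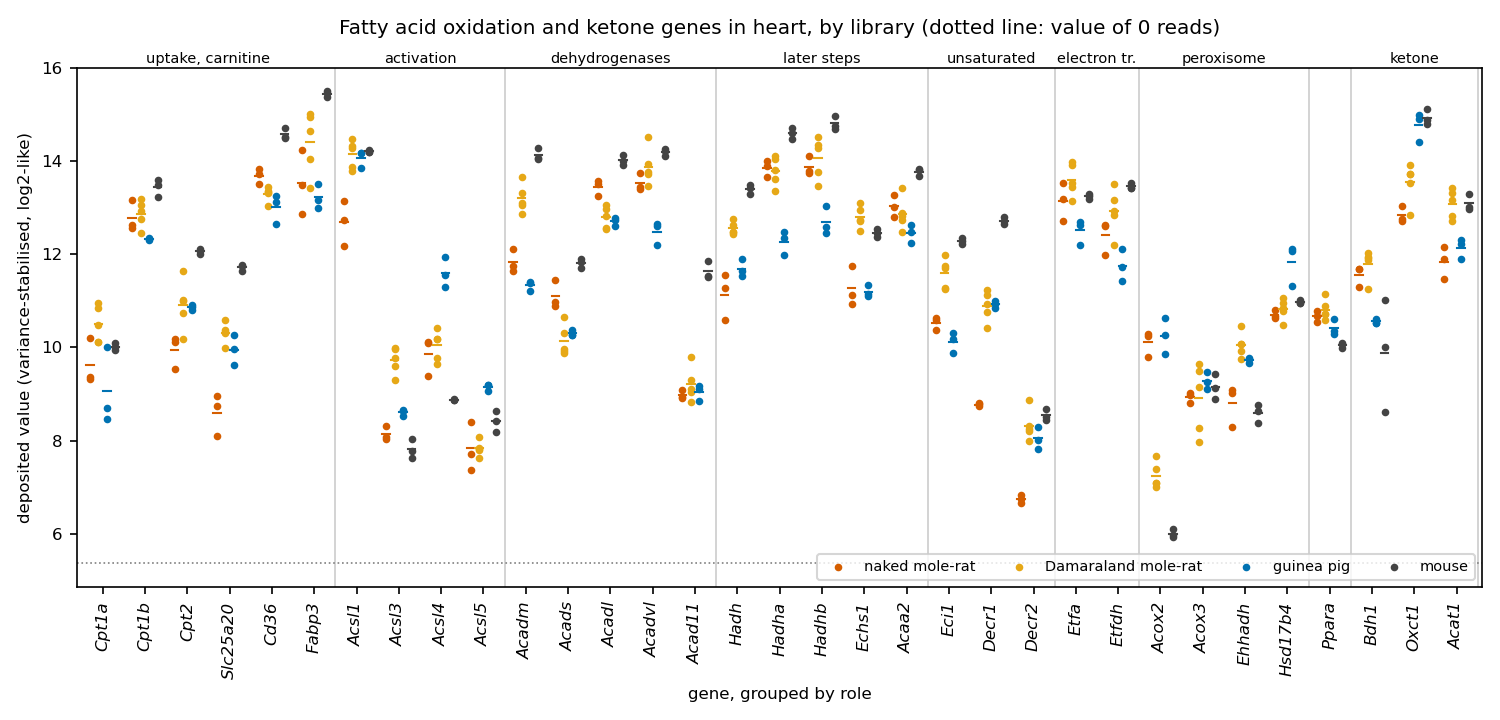
Deposited values (log2-like, vertical axis) of the 33 genes in 14 heart libraries, genes grouped by role; points are libraries, short bars species means, and the dotted line is the value of 0 reads. The mouse mean is on top for 21 genes and the naked mole-rat mean for 0, and naked mole-rat points stand apart at the bottom for Slc25a20, Decr1 and Decr2.

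In liver, the naked mole-rat had the highest mean for 14 of the 33 genes, the mouse for 12, the Damaraland mole-rat for 4 and the guinea pig for 3. Over all genes tested the shares in that order of species were 25.1%, 26.3%, 24.4% and 24.2%. The guinea pig had the lowest mean for 15, the mouse for 8 and each mole-rat for 5. Here the shares of all genes tested were 24.2% in guinea pig, 29.3% in mouse, 25.0% in naked mole-rat and 21.5% in Damaraland mole-rat. Naked mole-rat livers were higher than guinea pig livers for 13 genes and lower for 5, 54.5% of the members beside 37.8% of all genes tested (19.4% higher and 18.5% lower). Against mouse they were higher for 10 and lower for 6 (48.5% beside 41.2%, 21.1% higher and 20.1% lower). So the naked mole-rat was on top for no gene in heart and for 14 in liver, close to the 12 of the mouse. Damaraland livers were higher than guinea pig livers for 10 and lower for 4 (42.4% beside 36.2%, 19.1% higher and 17.1% lower), and against mouse higher for 5 and lower for 10 (45.5% beside 39.2%, 20.9% higher and 18.4% lower). Between the mole-rats, naked livers were higher for 6 and lower for 4 (30.3% beside 34.2%, 16.6% higher and 17.6% lower). Guinea pig livers were higher than mouse livers for 3 and lower for 13 (48.5% beside 37.2%, 18.8% higher and 18.4% lower). The median member differed by 0.64 between naked mole-rat and guinea pig, 0.03 between naked mole-rat and mouse, 0.26 between Damaraland mole-rat and guinea pig, -0.49 between Damaraland mole-rat and mouse, 0.29 between the mole-rats and -0.36 between guinea pig and mouse, where the median of all genes tested lay within 0.05 of 0. Hepatocyte markers (5 of 6) summed to 1459309 to 2826507 scaled reads in naked mole-rat and 1514009 to 2110327 in Damaraland liver, above the 811891 to 1453268 of guinea pig and 943717 to 1076932 of mouse liver without overlap. Alb, whose mean is given above, weighed heavily in the naked mole-rat sum, so the sum does not stand for the list as a whole. Bile duct markers (4 of 5) summed to 2138 to 2980 scaled reads in naked mole-rat liver, 119 to 424 in Damaraland liver, 835 to 2048 in guinea pig liver and 372 to 663 in mouse liver. Adipocyte markers (5 of 6) summed to 593 to 3594 in Damaraland liver, against 37.8 to 94 in naked mole-rat, 9.91 to 14 in guinea pig and 22.5 to 43.6 in mouse liver, where Ucp1, which marks brown fat, was at 0. The part of these markers in the counts was not tested.

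**Figure D2:**
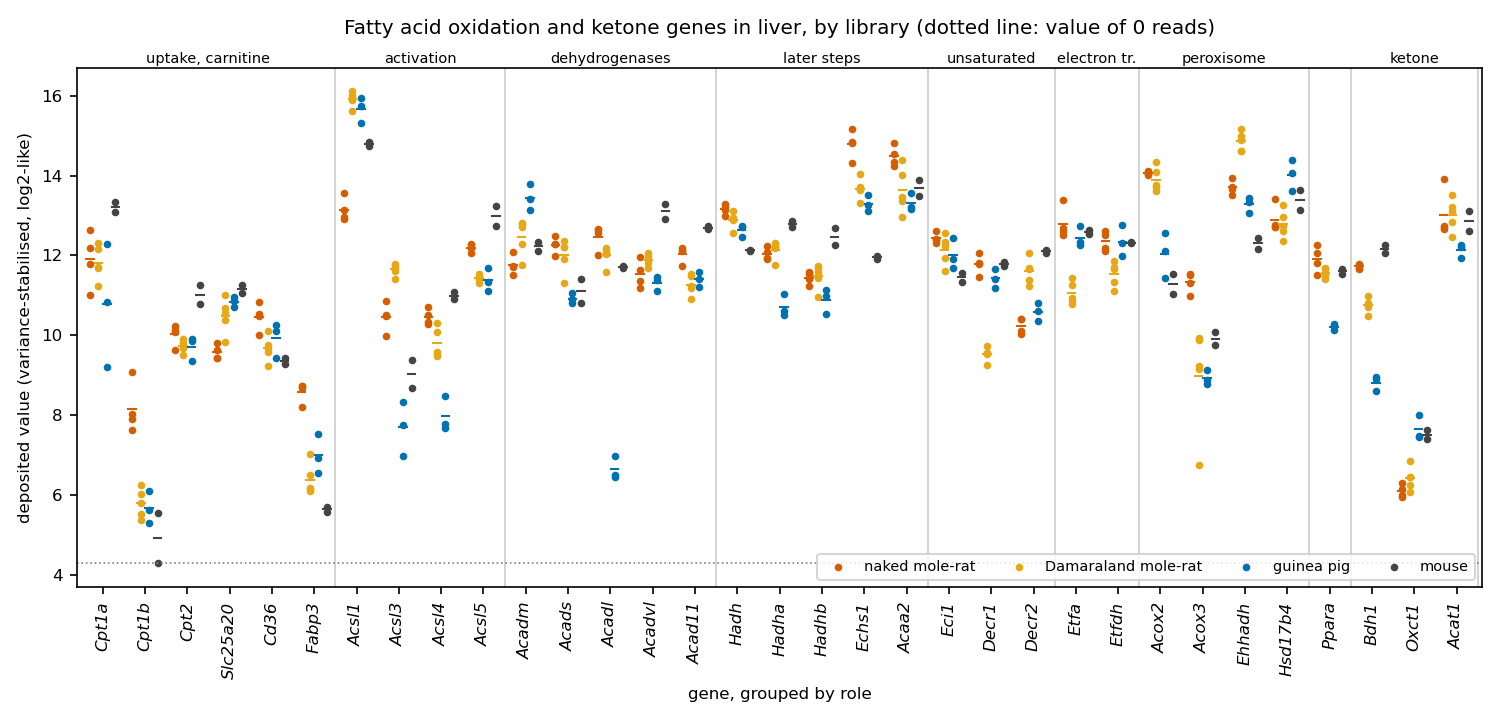
Deposited values (log2-like, vertical axis) of the 33 genes in 14 liver libraries, genes grouped by role; points are libraries, short bars species means, and the dotted line is the value of 0 reads. Guinea pig points drop far below the rest for Acadl, and naked mole-rat points stand above the rest for Cpt1b, Fabp3, Acox3 and Echs1.

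**Figure D3:**
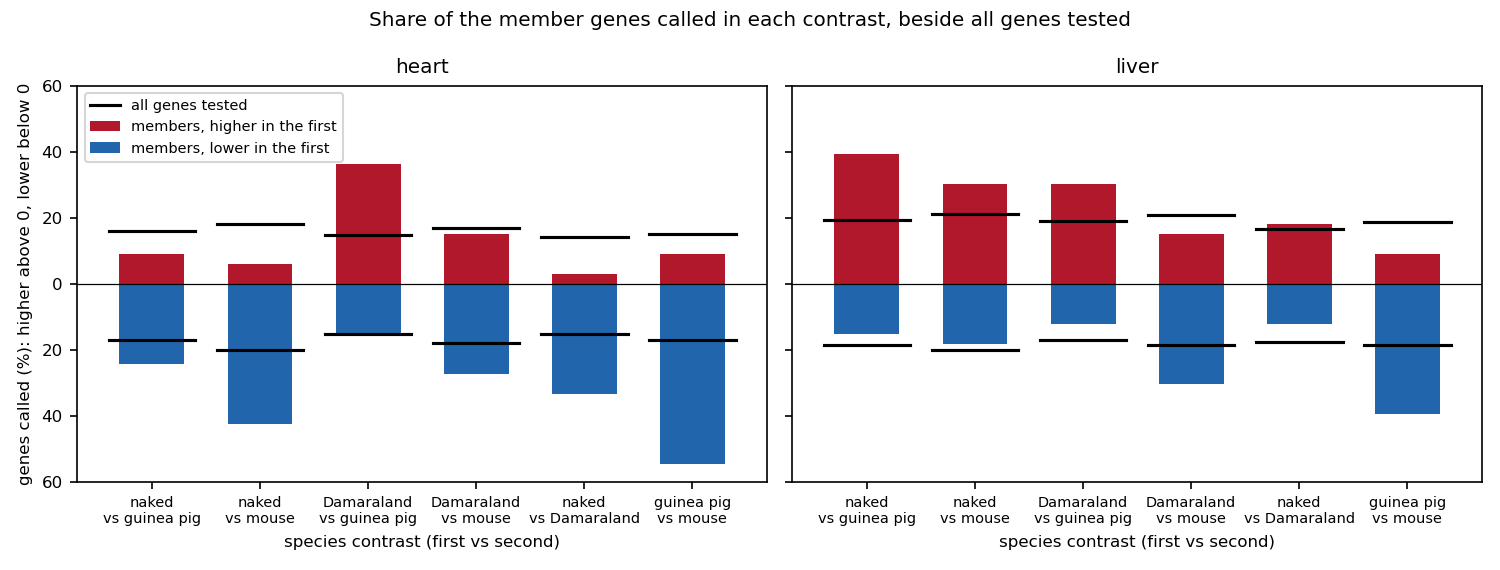
Share of the 33 genes called in each contrast (vertical axis, percent; bars above 0 higher in the first species, bars below 0 lower) for heart and liver; black lines give the same share of all genes tested. The longest bar is the 18 of 33 genes lower in guinea pig than in mouse heart.

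Some members were called against each of the other 3 species in 1 direction, and so set 1 species apart. Percentages give the share of all genes tested with the same pattern. As shares of the 33 members, 1 gene is 3.03%, 2 are 6.06%, 3 are 9.09%, 4 are 12.1%, 5 are 15.2% and 6 are 18.2%. In heart, naked mole-rat had 0 higher (beside 4.87%) and 4 lower (Slc25a20, Decr1, Decr2 and Acsl1, beside 4.14%). Damaraland mole-rat had 1 higher (Acsl3, beside 3.86%) and 0 lower (beside 2.9%). Guinea pig had 1 higher (Acsl4, beside 3.99%) and 3 lower (Acadvl, Hadha and Hadhb, beside 2.62%), and mouse 5 higher (Cpt2, Slc25a20, Acad11, Decr1 and Fabp3, beside 6.6%) and 1 lower (Acox2, beside 3.8%). Members with this pattern numbered 13 in heart: 6 for mouse, 4 for naked mole-rat, 4 for guinea pig and 1 for Damaraland mole-rat. Slc25a20 and Decr1 counted for both mouse and naked mole-rat. In liver, naked mole-rat had 4 higher (Cpt1b, Echs1, Acox3 and Fabp3, beside 5.83%) and 1 lower (Acsl1, beside 4.45%). Damaraland mole-rat had 2 higher (Ehhadh and Acsl3, beside 5.51%) and 2 lower (Decr1 and Etfa, beside 3.3%). Guinea pig had 0 higher (beside 5.1%) and 6 lower (Acadl, Hadha, Acsl3, Acsl4, Ppara and Bdh1, beside 4.28%), and mouse 1 higher (Acadvl, beside 6.33%) and 1 lower (Echs1, beside 5.83%). Members with this pattern numbered 15 in liver, with the largest set low in guinea pig. No share of all genes was computed for the totals of 13 and 15, so they are not read against one. A member could also set both mole-rats apart from both outgroups. In heart this held for 0 higher (beside 2.06%) and 1 lower (Oxct1, beside 2.62%), and in liver for 2 higher (Acox2 and Acsl3, beside 3.42%) and 1 lower (Oxct1, beside 2.87%).

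Entry into the cell and the carnitine shuttle held 6 genes: Cd36, the fatty acid translocase of the cell surface, Fabp3, the fatty acid carrier of muscle cytosol, Cpt1a and Cpt1b, the liver and muscle forms of the transferase that commits fatty acids to mitochondria, Slc25a20, the carrier of acylcarnitine across the inner membrane, and Cpt2, which restores acyl-CoA inside. In heart 3 of 6 were lower in naked mole-rat, 4 of 6 in Damaraland mole-rat and 5 of 6 in guinea pig than in mouse, beside 20.2%, 18.0% and 16.9% of all genes tested, and 0 were higher. Slc25a20 values were 8.73, 8.10 and 8.96 in the naked mole-rats, 10.38, 10.30, 10.58, 9.98 and 10.33 in the Damaraland mole-rats, 9.62, 10.28 and 9.96 in the guinea pigs and 11.78, 11.64 and 11.75 in the mice. Every naked mole-rat heart lay below every other heart and every mouse heart above, with differences of -3.13 (SE 0.22, adjusted p = 3.33e-09) from mouse, -1.35 from guinea pig and -1.71 from Damaraland mole-rat. Cpt2 values were 10.11, 9.54 and 10.18 in the naked mole-rats, 11.64, 10.998, 11.02, 10.75 and 10.18 in the Damaraland mole-rats, 10.81, 10.92 and 10.86 in the guinea pigs and 12.07, 12.01 and 12.12 in the mice. The mouse lay above the other species, by most against naked mole-rat at -2.13 (SE 0.27, adjusted p = 3.06e-06). The Damaraland difference from mouse, -1.15, was -0.97 and no longer called without Damaraland heart replicate 5.

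Cd36 values in heart were 13.50, 13.73 and 13.84 in the naked mole-rats, 13.44, 13.34, 13.37, 13.04 and 13.31 in the Damaraland mole-rats, 12.66, 13.12 and 13.25 in the guinea pigs and 14.50, 14.52 and 14.71 in the mice. Mouse hearts were highest without overlap, with differences of -1.28 (SE 0.17, adjusted p = 5.27e-06) for Damaraland mole-rat and -1.57 for guinea pig, and -0.89 for naked mole-rat, under the size needed for a call. Fabp3 values were 14.25, 13.48 and 12.86 in the naked mole-rats, 14.64, 15.004, 14.95, 14.04 and 13.42 in the Damaraland mole-rats, 13.002, 13.16 and 13.50 in the guinea pigs and 15.50, 15.38 and 15.46 in the mice. The mouse was again on top, with -1.91 (SE 0.37, adjusted p = 2.81e-04) for naked mole-rat and -2.22 for guinea pig. The Damaraland difference from mouse, -1.03, rested on single libraries: it was -0.79 without Damaraland heart replicate 5, -0.94 without replicate 4 and -0.97 after centring each library on its median, none of them called. Damaraland hearts were higher than guinea pig hearts for Fabp3 by 1.19 (SE 0.34, adjusted p = 0.00554), although their ranges overlapped.

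Cpt1b values in heart were 12.62, 12.56 and 13.17 in the naked mole-rats, 13.18, 13.05, 12.93, 12.77 and 12.45 in the Damaraland mole-rats, 12.34, 12.33 and 12.30 in the guinea pigs and 13.22, 13.49 and 13.59 in the mice. This muscle form differed less than the shuttle genes after it: guinea pig against mouse was called at -1.11 (SE 0.21, adjusted p = 2.52e-04), and no other pair was. Cpt1a values were 10.21, 9.32 and 9.36 in the naked mole-rats, 10.84, 10.12, 10.95, 10.12 and 10.49 in the Damaraland mole-rats, 8.47, 8.69 and 10.01 in the guinea pigs and 9.94, 10.01 and 10.09 in the mice. The Damaraland libraries were the highest group, and their difference from guinea pig was called at 1.45 (SE 0.31, adjusted p = 6.02e-04).

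In liver the same 6 genes went both ways: against mouse, the counts were 3 higher and 1 lower in naked mole-rat, 0 higher and 2 lower in Damaraland mole-rat and 1 higher and 2 lower in guinea pig. Beside these stand 21.1% higher and 20.1% lower of all genes tested, 20.9% and 18.4%, and 18.8% and 18.4% in the same order. Cpt1a, the form that governs entry in liver, had values of 11.78, 11.02, 12.65 and 12.19 in the naked mole-rats, 12.16, 11.67, 11.72, 12.31 and 11.24 in the Damaraland mole-rats, 10.83, 9.22 and 12.29 in the guinea pigs and 13.08 and 13.34 in the mice. Both mouse livers lay above all others, and the guinea pig livers spread over 3 units, the largest SD of any member in a group. Guinea pig was below mouse at -2.43 (SE 0.60, adjusted p = 0.00232) and Damaraland mole-rat below mouse at -1.39 (SE 0.55, adjusted p = 0.0366). The Damaraland call was lost without any one of Damaraland liver replicates 2, 3 and 5 or of the mouse livers, where the difference ran from -1.52 to -1.25, without the filter on low values, and on recovered reads.

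The muscle form Cpt1b was scarce in liver, at 7.64, 7.91, 9.08 and 8.03 in the naked mole-rats, 6.04, 6.24, 5.52, 5.37 and 5.80 in the Damaraland mole-rats, 6.10, 5.30 and 5.61 in the guinea pigs and 4.29 and 5.55 in the mice, where 4.29 is 0 reads. Naked mole-rat livers lay above all others, with a mean of 273 scaled reads beside 24.7, 20.8 and 7.97 in Damaraland mole-rat, guinea pig and mouse. The differences were 3.24 (SE 0.39, adjusted p = 1.26e-06) from mouse, 2.50 from guinea pig and 2.37 from Damaraland mole-rat, and 6.05 from mouse when recovered reads were tested with voom. Fabp3, the muscle fatty acid carrier, moved the same way, with values of 8.20, 8.72, 8.69 and 8.72 in the naked mole-rats, 6.50, 7.02, 6.15, 6.09 and 6.17 in the Damaraland mole-rats, 7.53, 6.55 and 6.92 in the guinea pigs and 5.57 and 5.70 in the mice. Naked mole-rat livers did not overlap any other group, at 2.95 (SE 0.28, adjusted p = 9.03e-08) from mouse, 2.20 from Damaraland mole-rat and 1.58 from guinea pig, and guinea pig exceeded mouse by 1.36 (2.27 with voom on recovered reads). Cardiomyocyte markers in liver summed to 834 to 1541 scaled reads in naked mole-rat, below the 1755 to 3569 of Damaraland mole-rat and overlapping the 563 to 3035 of guinea pig and 997 to 1391 of mouse. A muscle list added after seeing the data (10 of 11) summed to 3560 to 8420 in naked mole-rat, 1933 to 3258 in Damaraland, 620 to 3199 in guinea pig and 2161 to 3429 in mouse liver. A single gene of the list, the sarcomere gene Myom1, weighed heavily in the naked mole-rat sum, at a mean of 3624 against 343, 26 and 27.9. The sum therefore does not stand for the list as a whole. The part of this list in the Cpt1b and Fabp3 differences was not tested.

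Cd36 values in liver were 10.53, 10.84, 10.49 and 9.998 in the naked mole-rats, 10.10, 9.77, 9.57, 9.68 and 9.24 in the Damaraland mole-rats, 10.27, 9.44 and 10.11 in the guinea pigs and 9.28 and 9.43 in the mice. Naked mole-rat exceeded mouse at 1.11 (SE 0.26, adjusted p = 0.00134), a call lost without naked mole-rat liver replicate 2 (0.98), and no other pair was called. Slc25a20 had means of 9.58 ± 0.18 in the naked mole-rats, 10.49 ± 0.44 in the Damaraland mole-rats, 10.84 ± 0.13 in the guinea pigs and 11.16 ± 0.15 in the mice (SD over animals). As in heart, the naked mole-rat was lowest, at -1.58 (SE 0.24, adjusted p = 2.18e-05) from mouse and -1.26 from guinea pig, while -0.91 from Damaraland mole-rat was under the size needed. For Cpt2 the means were 10.02 ± 0.27 in the naked mole-rats, 9.73 ± 0.15 in the Damaraland mole-rats, 9.71 ± 0.31 in the guinea pigs and 11.02 ± 0.33 in the mice, and Damaraland mole-rat (-1.29) and guinea pig (-1.30) were below mouse.

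The acyl-CoA synthetases join fatty acids to coenzyme A. Acsl1 is the main form of heart and liver, Acsl3 sits on the endoplasmic reticulum and lipid droplets, Acsl4 prefers arachidonic acid, and Acsl5 is found on mitochondria and endoplasmic reticulum. Each of the 4 had its own order of species. Acsl1 values in heart were 12.74, 12.19 and 13.14 in the naked mole-rats, 14.48, 14.27, 14.33, 13.87 and 13.78 in the Damaraland mole-rats, 13.85, 14.18 and 14.18 in the guinea pigs and 14.19, 14.23 and 14.20 in the mice. Naked mole-rat hearts lay below all others, at -1.52 (SE 0.24, adjusted p = 3.51e-05) from mouse, -1.46 from Damaraland mole-rat and -1.38 from guinea pig, and the other 3 species were within 0.14 of each other. In liver Acsl1 values were 12.97, 13.56, 13.15 and 12.92 in the naked mole-rats, 16.11, 15.89, 16.02, 15.97 and 15.61 in the Damaraland mole-rats, 15.32, 15.74 and 15.95 in the guinea pigs and 14.75 and 14.85 in the mice. Naked mole-rat was again lowest without overlap and by more than in heart on this scale, -2.77 (SE 0.19, adjusted p = 1.15e-09) from Damaraland mole-rat, -2.52 from guinea pig and -1.65 from mouse; Damaraland mole-rat exceeded mouse by 1.12.

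Acsl3 values in heart were 8.07, 8.03 and 8.31 in the naked mole-rats, 9.78, 9.30, 9.99, 9.59 and 9.96 in the Damaraland mole-rats, 8.52, 8.62 and 8.67 in the guinea pigs and 7.78, 7.63 and 8.03 in the mice. Damaraland hearts lay above every other heart, at 1.91 (SE 0.17, adjusted p = 3.63e-08) from mouse, 1.12 from guinea pig and -1.59 for naked minus Damaraland mole-rat. The liver values were 10.51, 10.85, 10.49 and 9.98 in the naked mole-rats, 11.76, 11.69, 11.78, 11.62 and 11.41 in the Damaraland mole-rats, 7.75, 8.34 and 6.99 in the guinea pigs and 8.68 and 9.38 in the mice. Damaraland livers were highest here too, 3.96 (SE 0.25, adjusted p = 5.10e-10) above guinea pig and 2.62 above mouse, and naked mole-rat followed, 2.77 above guinea pig and 1.43 above mouse and -1.19 from Damaraland mole-rat. Guinea pig was below mouse at -1.34, a call lost without guinea pig liver replicate 3 (-0.99) or mouse liver replicate 2 (-0.99).

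Acsl4 turned around between the tissues in the guinea pig. Its heart values were 10.10, 10.12 and 9.38 in the naked mole-rats, 10.19, 9.77, 10.42, 9.65 and 10.17 in the Damaraland mole-rats, 11.55, 11.94 and 11.29 in the guinea pigs and 8.87, 8.87 and 8.89 in the mice. Guinea pig hearts were highest, 2.72 (SE 0.24, adjusted p = 5.37e-08) above mouse, with naked mole-rat -1.73 and Damaraland mole-rat -1.55 from guinea pig, and Damaraland 1.17 above mouse. The liver values were 10.27, 10.71, 10.34 and 10.51 in the naked mole-rats, 9.47, 9.54, 9.58, 10.09 and 10.30 in the Damaraland mole-rats, 8.47, 7.69 and 7.77 in the guinea pigs and 10.90 and 11.08 in the mice. There guinea pig livers were lowest without overlap, -3.01 (SE 0.27, adjusted p = 5.13e-08) from mouse, with naked mole-rat 2.48 and Damaraland mole-rat 1.82 above guinea pig and Damaraland -1.19 from mouse. Acsl5 had heart means of 7.83 ± 0.52 in the naked mole-rats, 7.83 ± 0.16 in the Damaraland mole-rats, 9.15 ± 0.08 in the guinea pigs and 8.41 ± 0.23 in the mice. Both mole-rats were below guinea pig, at -1.32 each. In liver its means were 12.19 ± 0.11 in the naked mole-rats, 11.43 ± 0.08 in the Damaraland mole-rats, 11.38 ± 0.28 in the guinea pigs and 12.98 ± 0.36 in the mice, and Damaraland mole-rat (-1.55) and guinea pig (-1.60) were below mouse.

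The acyl-CoA dehydrogenases open each turn of the spiral: Acadvl acts on very long, Acadl on long, Acadm on medium and Acads on short chains, and Acad11 is a related enzyme of long chains. In heart, 5 of 5 were lower in guinea pig than in mouse, 3 of 5 lower in Damaraland mole-rat and 2 of 5 in naked mole-rat, beside 16.9%, 18.0% and 20.2% of all genes tested. Acadvl values were 13.74, 13.41 and 13.45 in the naked mole-rats, 13.76, 13.73, 14.52, 13.46 and 13.94 in the Damaraland mole-rats, 12.20, 12.65 and 12.60 in the guinea pigs and 14.11, 14.22 and 14.26 in the mice. Guinea pig hearts lay below all others, -1.71 (SE 0.23, adjusted p = 9.01e-06) from mouse and 1.40 for Damaraland minus guinea pig. The naked mole-rat excess over guinea pig, 1.05, was 0.94 without naked mole-rat heart replicate 1 and 0.90 without guinea pig heart replicate 1, and then not called. Acadl values were 13.57, 13.24 and 13.50 in the naked mole-rats, 13.06, 12.82, 12.97, 12.55 and 12.56 in the Damaraland mole-rats, 12.60, 12.74 and 12.78 in the guinea pigs and 13.92, 13.999 and 14.13 in the mice. Mouse was on top, with Damaraland mole-rat at -1.22 (SE 0.16, adjusted p = 4.96e-06) and guinea pig at -1.31 from it, and naked mole-rat at -0.58 not called.

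Acadm, the medium-chain enzyme, had heart values of 12.12, 11.75 and 11.64 in the naked mole-rats, 13.31, 13.07, 13.66, 12.85 and 13.098 in the Damaraland mole-rats, 11.41, 11.21 and 11.39 in the guinea pigs and 14.07, 14.04 and 14.28 in the mice. No pair of species overlapped: mouse was highest, then Damaraland mole-rat, naked mole-rat and guinea pig. The differences called were -2.80 (SE 0.20, adjusted p = 6.48e-09) for guinea pig from mouse, -2.30 for naked mole-rat from mouse, 1.86 for Damaraland mole-rat above guinea pig and -1.36 for naked from Damaraland mole-rat. Acad11 values were 8.93, 8.91 and 9.08 in the naked mole-rats, 9.10, 8.82, 9.30, 9.79 and 9.04 in the Damaraland mole-rats, 8.85, 9.10 and 9.16 in the guinea pigs and 11.52, 11.53 and 11.85 in the mice. The mouse stood above the other species, which overlapped one another, at -2.66 (SE 0.21, adjusted p = 1.18e-08) for naked mole-rat, -2.42 for Damaraland mole-rat and -2.59 for guinea pig. Acads had means of 11.11 ± 0.30 in the naked mole-rats, 10.15 ± 0.33 in the Damaraland mole-rats, 10.30 ± 0.06 in the guinea pigs and 11.81 ± 0.09 in the mice, with Damaraland mole-rat (-1.67) and guinea pig (-1.52) below mouse.

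In liver the dehydrogenases were mixed: against mouse, the counts were 1 higher and 1 lower in naked mole-rat, 0 higher and 2 lower in Damaraland mole-rat and 1 higher and 3 lower in guinea pig. The shares of all genes tested were 21.1% higher and 20.1% lower, 20.9% and 18.4%, and 18.8% and 18.4% in the same order. Acadl gave the largest difference of any member. Its values were 12.56, 12.64, 12.67 and 12.02 in the naked mole-rats, 12.05, 12.08, 12.14, 12.19 and 11.59 in the Damaraland mole-rats, 6.97, 6.44 and 6.51 in the guinea pigs and 11.72 and 11.69 in the mice. The guinea pig livers held a mean of 65.9 scaled reads against 5728 in naked mole-rat, 4129 in Damaraland and 3299 in mouse livers. Guinea pig lay far below every other group, at -5.06 (SE 0.23, adjusted p = 1.28e-11) from mouse, with naked mole-rat 5.83 and Damaraland mole-rat 5.37 above it. In heart, by contrast, guinea pig and Damaraland mole-rat values of Acadl overlapped (difference 0.09). Acadm values in liver were 11.74, 11.72, 12.08 and 11.50 in the naked mole-rats, 12.81, 12.29, 12.79, 12.71 and 11.75 in the Damaraland mole-rats, 13.13, 13.43 and 13.80 in the guinea pigs and 12.11 and 12.34 in the mice. Guinea pig was highest without overlap, with naked mole-rat -1.69 (SE 0.24, adjusted p = 1.04e-05) from it and mouse exceeded by 1.23.

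Acadvl values in liver were 11.19, 11.36, 11.95 and 11.64 in the naked mole-rats, 11.98, 11.82, 12.07, 11.88 and 11.70 in the Damaraland mole-rats, 11.11, 11.47 and 11.38 in the guinea pigs and 12.91 and 13.29 in the mice. Mouse was above the other species, at -1.57 (SE 0.21, adjusted p = 5.35e-06) for naked mole-rat, -1.21 for Damaraland mole-rat and -1.78 for guinea pig, and those 3 species did not differ by 1 or more. Acads had means of 12.27 ± 0.20 in the naked mole-rats, 12.01 ± 0.42 in the Damaraland mole-rats, 10.92 ± 0.12 in the guinea pigs and 11.11 ± 0.44 in the mice. Naked mole-rat exceeded guinea pig by 1.35 and mouse by 1.16, the latter 0.85 and uncalled without mouse liver replicate 2. Damaraland mole-rat exceeded guinea pig by 1.08, which was 0.99 and uncalled without the female, Damaraland liver replicate 4. Acad11 means were 12.05 ± 0.20 in the naked mole-rats, 11.26 ± 0.25 in the Damaraland mole-rats, 11.41 ± 0.19 in the guinea pigs and 12.69 ± 0.04 in the mice, with Damaraland mole-rat (-1.43) and guinea pig (-1.29) below mouse.

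Hadha and Hadhb encode the subunits of the mitochondrial trifunctional protein, which carries out the later steps on long chains, and Echs1, Hadh and Acaa2 encode the hydratase, hydroxyacyl-CoA dehydrogenase and thiolase of shorter chains. In heart, 5 of 5 were lower in guinea pig than in mouse, beside 16.9% of all genes tested, and both subunits of the trifunctional protein marked the guinea pig off from the other 3 species. Hadha values were 14.01, 13.66 and 13.91 in the naked mole-rats, 14.05, 13.81, 14.11, 13.36 and 13.61 in the Damaraland mole-rats, 12.36, 11.97 and 12.47 in the guinea pigs and 14.48, 14.60 and 14.71 in the mice. Every guinea pig heart lay below every other heart, with naked mole-rat 1.59 (SE 0.21, adjusted p = 7.75e-06) and Damaraland mole-rat 1.52 above it and guinea pig -2.33 from mouse. Hadhb values were 14.10, 13.79 and 13.75 in the naked mole-rats, 14.34, 14.28, 14.52, 13.47 and 13.76 in the Damaraland mole-rats, 12.45, 13.03 and 12.59 in the guinea pigs and 14.76, 14.69 and 14.98 in the mice. Guinea pig was again lowest without overlap: naked mole-rat 1.19 (SE 0.26, adjusted p = 7.29e-04) and Damaraland mole-rat 1.39 above guinea pig, and guinea pig -2.12 from mouse.

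For the shorter-chain enzymes of heart, Hadh means were 11.13 ± 0.50 in the naked mole-rats, 12.55 ± 0.14 in the Damaraland mole-rats, 11.69 ± 0.19 in the guinea pigs and 13.40 ± 0.10 in the mice. Naked mole-rat differed from mouse by -2.27 (SE 0.21, adjusted p = 1.00e-07) and from Damaraland mole-rat by -1.42, and guinea pig differed from mouse by -1.72. Echs1 means were 11.27 ± 0.43 in the naked mole-rats, 12.80 ± 0.24 in the Damaraland mole-rats, 11.19 ± 0.14 in the guinea pigs and 12.46 ± 0.08 in the mice. Naked mole-rat and guinea pig were the low pair, at -1.19 and -1.26 from mouse, and Damaraland mole-rat exceeded guinea pig by 1.61, with naked mole-rat -1.54 from Damaraland mole-rat. Acaa2 means were 13.03 ± 0.24 in the naked mole-rats, 12.87 ± 0.34 in the Damaraland mole-rats, 12.45 ± 0.20 in the guinea pigs and 13.77 ± 0.07 in the mice, and the guinea pig and mouse pair was called (-1.32), while no other pair was.

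In liver the same 5 genes gave 1 higher and 2 lower in guinea pig than in mouse, beside 18.8% and 18.4% of all genes tested. Hadha values there were 11.94, 11.91, 12.25 and 12.07 in the naked mole-rats, 12.20, 12.19, 12.23, 12.31 and 11.77 in the Damaraland mole-rats, 10.61, 10.50 and 11.05 in the guinea pigs and 12.86 and 12.71 in the mice. Guinea pig was lowest without overlap here as well, -2.07 (SE 0.21, adjusted p = 2.27e-07) from mouse, with naked mole-rat 1.33 and Damaraland mole-rat 1.42 above it. Hadhb values were 11.42, 11.24, 11.58 and 11.54 in the naked mole-rats, 11.68, 11.44, 11.60, 11.74 and 10.95 in the Damaraland mole-rats, 10.98, 10.52 and 11.12 in the guinea pigs and 12.27 and 12.68 in the mice. Guinea pig differed from mouse by -1.60 (SE 0.24, adjusted p = 2.43e-05), and naked mole-rat differed from mouse by -1.03, which was -0.82 without mouse liver replicate 2, -0.96 without naked mole-rat liver replicate 2 and -0.96 after median centring, and then not called. The partner subunits thus did not show the same calls in liver: Hadhb of the mole-rats was 0.57 and 0.61 above guinea pig, under the size needed.

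Echs1 values in liver were 14.83, 14.81, 15.17 and 14.32 in the naked mole-rats, 13.67, 13.65, 13.72, 14.03 and 13.32 in the Damaraland mole-rats, 13.26, 13.12 and 13.50 in the guinea pigs and 11.996 and 11.91 in the mice. Naked mole-rat livers lay above and mouse livers below all others, a difference of 2.83 (SE 0.24, adjusted p = 2.05e-08). Naked mole-rat exceeded guinea pig by 1.49 and Damaraland mole-rat by 1.11, the latter 0.98 and uncalled without naked mole-rat liver replicate 3. Damaraland mole-rat (1.72) and guinea pig (1.34) exceeded mouse. Hadh means were 13.16 ± 0.13 in the naked mole-rats, 12.89 ± 0.21 in the Damaraland mole-rats, 12.63 ± 0.16 in the guinea pigs and 12.13 ± 0.03 in the mice. Naked mole-rat exceeded mouse by 1.03, which was 0.98 and uncalled without naked mole-rat liver replicate 4. Acaa2 means were 14.48 ± 0.25 in the naked mole-rats, 13.64 ± 0.56 in the Damaraland mole-rats, 13.32 ± 0.22 in the guinea pigs and 13.68 ± 0.28 in the mice, and naked mole-rat exceeded guinea pig by 1.16.

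Double bonds of unsaturated fatty acids are moved or reduced by Eci1, an enoyl-CoA isomerase, Decr1, the dienoyl-CoA reductase of mitochondria, and Decr2, its peroxisomal counterpart. In heart all 3 were lower in naked mole-rat than in mouse and than in Damaraland mole-rat, and 2 of 3 lower than in guinea pig. Beside these stand 20.2%, 15.2% and 17.0% of all genes tested. Decr1 values were 8.73, 8.80 and 8.79 in the naked mole-rats, 11.13, 10.75, 10.94, 11.23 and 10.41 in the Damaraland mole-rats, 10.85, 10.94 and 10.99 in the guinea pigs and 12.71, 12.64 and 12.81 in the mice. The naked mole-rat hearts lay within 0.1 of each other and below every other heart, and the mouse hearts above. The naked mole-rat difference from mouse, -3.95 (SE 0.19, adjusted p = 2.43e-11), was exceeded in size in heart only by those of Acox2, and -2.15 from guinea pig and -2.12 from Damaraland mole-rat were also called. Damaraland mole-rat and guinea pig overlapped, both below mouse (-1.83 and -1.79).

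Decr2 was rarer, with heart values of 6.82, 6.65 and 6.75 in the naked mole-rats, 7.99, 8.87, 8.24, 8.20 and 8.32 in the Damaraland mole-rats, 7.82, 8.30 and 8.02 in the guinea pigs and 8.67, 8.45 and 8.50 in the mice and means of 40.5, 250, 190 and 296 scaled reads in the same order of species. Naked mole-rat hearts again lay below all others, at -1.80 (SE 0.20, adjusted p = 6.54e-07) from mouse, -1.58 from Damaraland mole-rat and -1.30 from guinea pig. With voom on recovered reads, which does not compress rare genes, these were -2.88, -2.59 and -2.21. Eci1 means were 10.53 ± 0.14 in the naked mole-rats, 11.59 ± 0.32 in the Damaraland mole-rats, 10.12 ± 0.23 in the guinea pigs and 12.29 ± 0.07 in the mice. Naked mole-rat was -1.75 (SE 0.20, adjusted p = 9.87e-07) and guinea pig -2.16 from mouse, and Damaraland mole-rat exceeded guinea pig by 1.47. The naked minus Damaraland difference, -1.06, was -0.96 without Damaraland heart replicate 1 and -0.98 without the shallow naked mole-rat heart replicate 3, neither called.

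In liver the low species for Decr1 was the Damaraland mole-rat instead. The values were 12.06, 11.82, 11.79 and 11.45 in the naked mole-rats, 9.74, 9.56, 9.54, 9.55 and 9.25 in the Damaraland mole-rats, 11.42, 11.19 and 11.66 in the guinea pigs and 11.73 and 11.83 in the mice. Damaraland livers lay below all others, -2.25 (SE 0.19, adjusted p = 1.52e-08) from mouse and -1.89 from guinea pig, and naked mole-rat exceeded Damaraland mole-rat by 2.25, while naked mole-rat and mouse overlapped. Decr2 values in liver were 10.03, 10.40, 10.11 and 10.41 in the naked mole-rats, 11.24, 11.69, 11.39, 12.07 and 11.66 in the Damaraland mole-rats, 10.82, 10.36 and 10.60 in the guinea pigs and 12.07 and 12.13 in the mice. Naked mole-rat was lowest in mean, -1.86 (SE 0.22, adjusted p = 9.26e-07) from mouse and -1.37 from Damaraland mole-rat, and guinea pig was -1.51 from mouse. Damaraland mole-rat exceeded guinea pig by 1.02, a call lost without Damaraland liver replicate 2 (0.996), the female replicate 4 (0.90) or guinea pig liver replicate 2 (0.90) and after median centring (0.99). Eci1 means were 12.43 ± 0.14 in the naked mole-rats, 12.13 ± 0.37 in the Damaraland mole-rats, 12.01 ± 0.38 in the guinea pigs and 11.45 ± 0.15 in the mice, and no pair was called.

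Etfa encodes the alpha subunit of the electron transfer flavoprotein, which accepts electrons from the dehydrogenases, and Etfdh encodes the oxidoreductase that passes them to ubiquinone. In heart Etfa means were 13.15 ± 0.41 in the naked mole-rats, 13.60 ± 0.35 in the Damaraland mole-rats, 12.51 ± 0.26 in the guinea pigs and 13.24 ± 0.06 in the mice, and Damaraland mole-rat exceeded guinea pig by 1.09 (SE 0.22, adjusted p = 3.68e-04). That call was lost without Damaraland heart replicate 3 (0.997) or guinea pig heart replicate 1 (0.94). In liver Etfa values were 12.50, 12.70, 13.38 and 12.60 in the naked mole-rats, 11.43, 10.87, 10.93, 11.25 and 10.78 in the Damaraland mole-rats, 12.27, 12.35 and 12.73 in the guinea pigs and 12.54 and 12.65 in the mice. Damaraland livers lay below every other liver, at -1.54 (SE 0.24, adjusted p = 2.37e-05) from mouse and -1.40 from guinea pig, with naked mole-rat 1.74 above them. Decr1 and Etfa were the 2 members called lower in Damaraland liver against each other species. Etfdh means in heart were 12.41 ± 0.36 in the naked mole-rats, 12.93 ± 0.48 in the Damaraland mole-rats, 11.75 ± 0.34 in the guinea pigs and 13.46 ± 0.07 in the mice. Guinea pig was below mouse (-1.71) and Damaraland mole-rat (1.18 above guinea pig), and the naked mole-rat difference from mouse, -1.05, was -0.84 and uncalled without naked mole-rat heart replicate 3. In liver its means were 12.35 ± 0.25 in the naked mole-rats, 11.54 ± 0.30 in the Damaraland mole-rats, 12.35 ± 0.39 in the guinea pigs and 12.32 ± 0.02 in the mice, and no pair was called.

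In peroxisomes, Acox2 oxidises branched chains and bile acid precursors, Acox3 branched chains, and Ehhadh and Hsd17b4 are bifunctional enzymes of the next steps. Acox2 had the largest differences of any member in heart, where it was rare in some species and not in others. Its values were 10.29, 9.79 and 10.24 in the naked mole-rats, 7.01, 7.66, 7.09, 7.39 and 7.08 in the Damaraland mole-rats, 10.64, 10.26 and 9.85 in the guinea pigs and 6.09, 5.92 and 5.96 in the mice, where 5.36 is 0 reads, and the means were 1035, 83.1, 1168 and 8.02 scaled reads. Naked mole-rat and guinea pig formed a high pair whose ranges overlapped, Damaraland mole-rat lay well below, and mouse lowest. Naked mole-rat exceeded mouse by 4.12 (SE 0.22, adjusted p = 8.18e-11) and Damaraland mole-rat by 2.86, guinea pig exceeded mouse by 4.26, Damaraland mole-rat differed from guinea pig by -3.004 and from mouse by 1.25. With voom on recovered reads the excess over mouse was 6.93 for naked mole-rat, 3.27 for Damaraland mole-rat and 7.10 for guinea pig. Alb, the liver transcript, was at 20193 scaled reads in naked mole-rat hearts and 949 in guinea pig hearts, whose Acox2 ranges overlapped, and its part in the Acox2 differences was not tested.

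Ehhadh means in heart were 8.80 ± 0.44 in the naked mole-rats, 10.06 ± 0.26 in the Damaraland mole-rats, 9.73 ± 0.06 in the guinea pigs and 8.59 ± 0.20 in the mice. Damaraland mole-rat exceeded mouse by 1.47 (SE 0.19, adjusted p = 4.14e-06) and guinea pig did by 1.14, and naked mole-rat was -1.25 from Damaraland mole-rat, which was -0.999 and uncalled without naked mole-rat heart replicate 2. Hsd17b4 means were 10.70 ± 0.09 in the naked mole-rats, 10.82 ± 0.22 in the Damaraland mole-rats, 11.83 ± 0.44 in the guinea pigs and 10.98 ± 0.04 in the mice. Both mole-rats were below guinea pig, at -1.13 and -1.01. The naked mole-rat call was lost without guinea pig heart replicate 2, at -0.998, and the Damaraland call without any one of Damaraland heart replicates 1 and 2 and guinea pig heart replicates 2 and 3, where it ran from -0.996 to -0.87. Median centring also ended the Damaraland call, at -0.97. Acox3 means were 8.94 ± 0.11 in the naked mole-rats, 8.91 ± 0.74 in the Damaraland mole-rats, 9.27 ± 0.18 in the guinea pigs and 9.15 ± 0.27 in the mice, and no pair was called.

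In liver, where bile acids are made, Acox2 values were 14.11, 14.08, 14.02 and 14.04 in the naked mole-rats, 13.77, 14.08, 13.72, 14.34 and 13.60 in the Damaraland mole-rats, 12.57, 12.11 and 11.42 in the guinea pigs and 11.55 and 11.04 in the mice. Both mole-rats lay above both outgroups without overlap: naked mole-rat by 2.03 (SE 0.24, adjusted p = 1.23e-06) over guinea pig and 2.77 over mouse, Damaraland mole-rat by 1.87 and 2.61. Acox2 and Acsl3 were the 2 members higher in both mole-rats than in both outgroups in liver. Ehhadh values were 13.72, 13.52, 13.94 and 13.66 in the naked mole-rats, 15.18, 14.62, 14.89, 15.003 and 14.61 in the Damaraland mole-rats, 13.34, 13.07 and 13.43 in the guinea pigs and 12.17 and 12.45 in the mice. Damaraland livers were highest without overlap, 2.55 (SE 0.21, adjusted p = 1.32e-08) over mouse, 1.58 over guinea pig and -1.15 for naked minus Damaraland mole-rat, and naked mole-rat exceeded mouse by 1.40. Hsd17b4 means were 12.90 ± 0.35 in the naked mole-rats, 12.79 ± 0.34 in the Damaraland mole-rats, 14.02 ± 0.38 in the guinea pigs and 13.39 ± 0.35 in the mice. Both mole-rats were below guinea pig here too, at -1.12, which was -0.94 and uncalled without guinea pig liver replicate 3, and -1.23.

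Acox3 values in liver were 10.99, 11.30, 11.54 and 11.52 in the naked mole-rats, 9.15, 9.88, 6.75, 9.24 and 9.93 in the Damaraland mole-rats, 8.78, 8.89 and 9.14 in the guinea pigs and 10.08 and 9.76 in the mice. Naked mole-rat livers lay above all others, 2.40 (SE 0.51, adjusted p = 5.23e-04) over guinea pig and 2.34 over Damaraland mole-rat, and Damaraland replicate 3 was far below the other 4 Damaraland livers. The excess over mouse, 1.42 (SE 0.58, adjusted p = 0.0401), lost its call without any one of naked mole-rat liver replicates 2, 3 and 4 or of the mouse livers (1.26 to 1.58), without the filter on low values and on recovered reads.

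Ppara values in heart were 10.79, 10.55 and 10.67 in the naked mole-rats, 11.14, 10.89, 10.72, 10.72 and 10.60 in the Damaraland mole-rats, 10.61, 10.28 and 10.35 in the guinea pigs and 9.98, 10.09 and 10.07 in the mice. No pair reached the size for a call, and the widest difference was 0.77 (SE 0.15, adjusted p = 2.40e-04) for Damaraland mole-rat over mouse. In liver the values were 12.07, 11.82, 11.50 and 12.27 in the naked mole-rats, 11.52, 11.69, 11.57, 11.42 and 11.66 in the Damaraland mole-rats, 10.29, 10.22 and 10.12 in the guinea pigs and 11.53 and 11.67 in the mice. Guinea pig livers lay below every other liver, -1.39 (SE 0.20, adjusted p = 1.62e-05) from mouse, with naked mole-rat 1.70 and Damaraland mole-rat 1.36 above them. Leukocyte markers (4 of 6) summed to 2626 to 4035 scaled reads in guinea pig liver, against 809 to 1800 in naked mole-rat, 1069 to 1896 in Damaraland and 1270 to 1288 in mouse liver, and their part in the guinea pig differences was not tested.

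Ketone bodies are used through Bdh1, which turns hydroxybutyrate into acetoacetate in the heart and the reverse in liver, Oxct1, the transferase that activates acetoacetate in tissues that burn ketones and is scarce in hepatocytes, and Acat1, the mitochondrial thiolase that splits acetoacetyl-CoA. Oxct1 was lower in both mole-rats than in both outgroups in heart, and the only member so called there. Its heart values were 13.03, 12.72 and 12.75 in the naked mole-rats, 13.73, 13.91, 13.72, 13.54 and 12.84 in the Damaraland mole-rats, 14.40, 14.91 and 14.99 in the guinea pigs and 14.89, 14.79 and 15.12 in the mice. No mole-rat heart reached the lowest outgroup heart, and the means were 7250, 12255, 28309 and 31336 scaled reads. Naked mole-rat differed by -2.10 (SE 0.25, adjusted p = 1.60e-06) from mouse and -1.94 (SE 0.25, adjusted p = 4.93e-06) from guinea pig, and Damaraland mole-rat by -1.38 (SE 0.22, adjusted p = 4.09e-05) from mouse and -1.22 (SE 0.22, adjusted p = 1.65e-04) from guinea pig. The outgroups overlapped (-0.16), as did the mole-rats (-0.71). These 4 calls held without any one heart library.

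In liver, where Oxct1 is rare, its values were 5.998, 5.95, 6.29 and 6.16 in the naked mole-rats, 6.84, 6.45, 6.45, 6.25 and 6.08 in the Damaraland mole-rats, 8.01, 7.46 and 7.47 in the guinea pigs and 7.39 and 7.62 in the mice, with 4.29 for 0 reads and means of 35.4, 52.1, 167 and 146 scaled reads. Both mole-rats again lay below both outgroups without overlap, naked mole-rat by -1.55 (SE 0.20, adjusted p = 2.50e-06) from guinea pig and -1.41 from mouse, Damaraland mole-rat by -1.23 and -1.09. The last call was lost without mouse liver replicate 2, at -0.98.

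Bdh1 values in heart were 11.67, 11.30 and 11.69 in the naked mole-rats, 11.95, 12.02, 11.88, 11.25 and 11.91 in the Damaraland mole-rats, 10.53, 10.62 and 10.52 in the guinea pigs and 8.61, 10.004 and 11.01 in the mice. Mole-rat hearts lay above both outgroups without overlap, while the mouse hearts spread over more than 2 units. The excess over mouse was 1.68 (SE 0.39, adjusted p = 0.00131) in naked mole-rat and 1.92 (SE 0.35, adjusted p = 1.36e-04) in Damaraland mole-rat, and over guinea pig 1.24 (SE 0.35, adjusted p = 0.00561) in Damaraland mole-rat. Without the lowest mouse heart, replicate 1, the naked mole-rat excess was 1.05, still called. Naked mole-rat against guinea pig was 0.996 (SE 0.39, adjusted p = 0.037), just under the size needed, and it was called after median centring, on recovered reads and without naked mole-rat heart replicate 2. In liver the Bdh1 values were 11.77, 11.67, 11.78 and 11.68 in the naked mole-rats, 10.97, 10.70, 10.49, 10.79 and 10.81 in the Damaraland mole-rats, 8.95, 8.60 and 8.90 in the guinea pigs and 12.06 and 12.26 in the mice. No pair of species overlapped, and the order was mouse, naked mole-rat, Damaraland mole-rat, guinea pig. Guinea pig was -3.34 (SE 0.18, adjusted p = 8.15e-11) from mouse, naked mole-rat 2.91 and Damaraland mole-rat 1.94 above guinea pig, and Damaraland mole-rat -1.41 from mouse.

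Acat1 values in heart were 11.89, 11.46 and 12.16 in the naked mole-rats, 13.16, 13.31, 13.42, 12.82 and 12.72 in the Damaraland mole-rats, 12.22, 11.90 and 12.30 in the guinea pigs and 12.98, 13.02 and 13.29 in the mice. Damaraland mole-rat and mouse formed the high pair, and naked mole-rat lay below both, -1.26 (SE 0.22, adjusted p = 1.14e-04) from mouse and -1.24 from Damaraland mole-rat. In liver the values were 12.67, 12.72, 13.92 and 12.73 in the naked mole-rats, 13.51, 12.85, 13.102, 13.21 and 12.45 in the Damaraland mole-rats, 11.93, 12.20 and 12.27 in the guinea pigs and 13.11 and 12.61 in the mice. No pair was called, with naked mole-rat 0.88 and Damaraland mole-rat 0.89 above guinea pig.

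**Figure D4:**
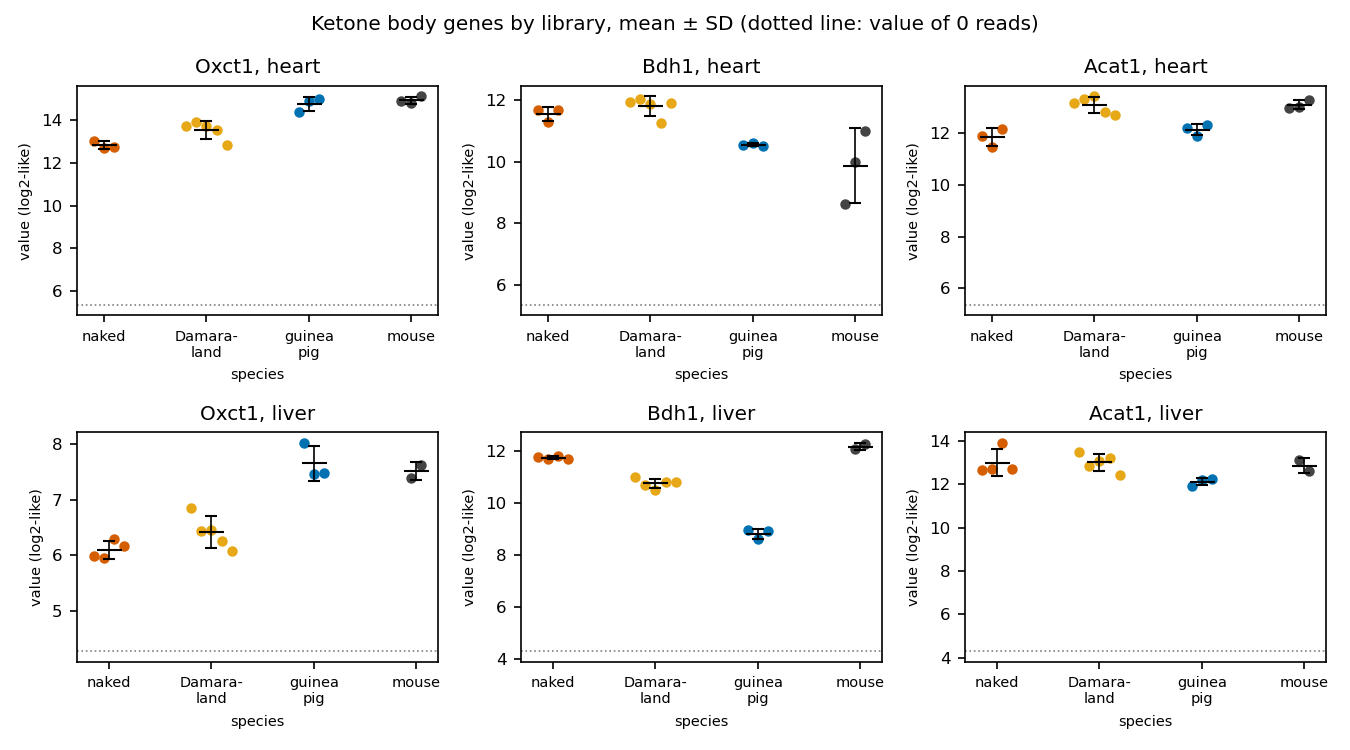
Deposited values (log2-like, vertical axis) of Oxct1, Bdh1 and Acat1 by species in heart (top) and liver (bottom); points are libraries, bars mean ± SD, and the dotted line is the value of 0 reads. Oxct1 lies lower in both mole-rats in both tissues. Bdh1 has its lowest heart mean in mouse, where the libraries spread widely and overlap guinea pig, and is highest in mouse liver.

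Several members had one order of species in heart and another in liver, and 4 of them are drawn, chosen after their values were seen. Acadl of guinea pig, near that of Damaraland mole-rat in heart (12.71 ± 0.10 and 12.79 ± 0.23), was 6.64 ± 0.29 in liver against 12.01 ± 0.24. Decr1 was lowest in naked mole-rat heart and in Damaraland liver. Etfa of Damaraland mole-rat had the highest mean in heart and the lowest in liver, and Acsl4 of guinea pig likewise. Over all 6 contrasts, 15 of 198 pairs of a member and a contrast (7.58%) were called in opposite directions in heart and liver, beside 1.95% over all genes tested in both tissues. The tissue tables were transformed separately, so no test was made of the difference between tissues.

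**Figure D5:**
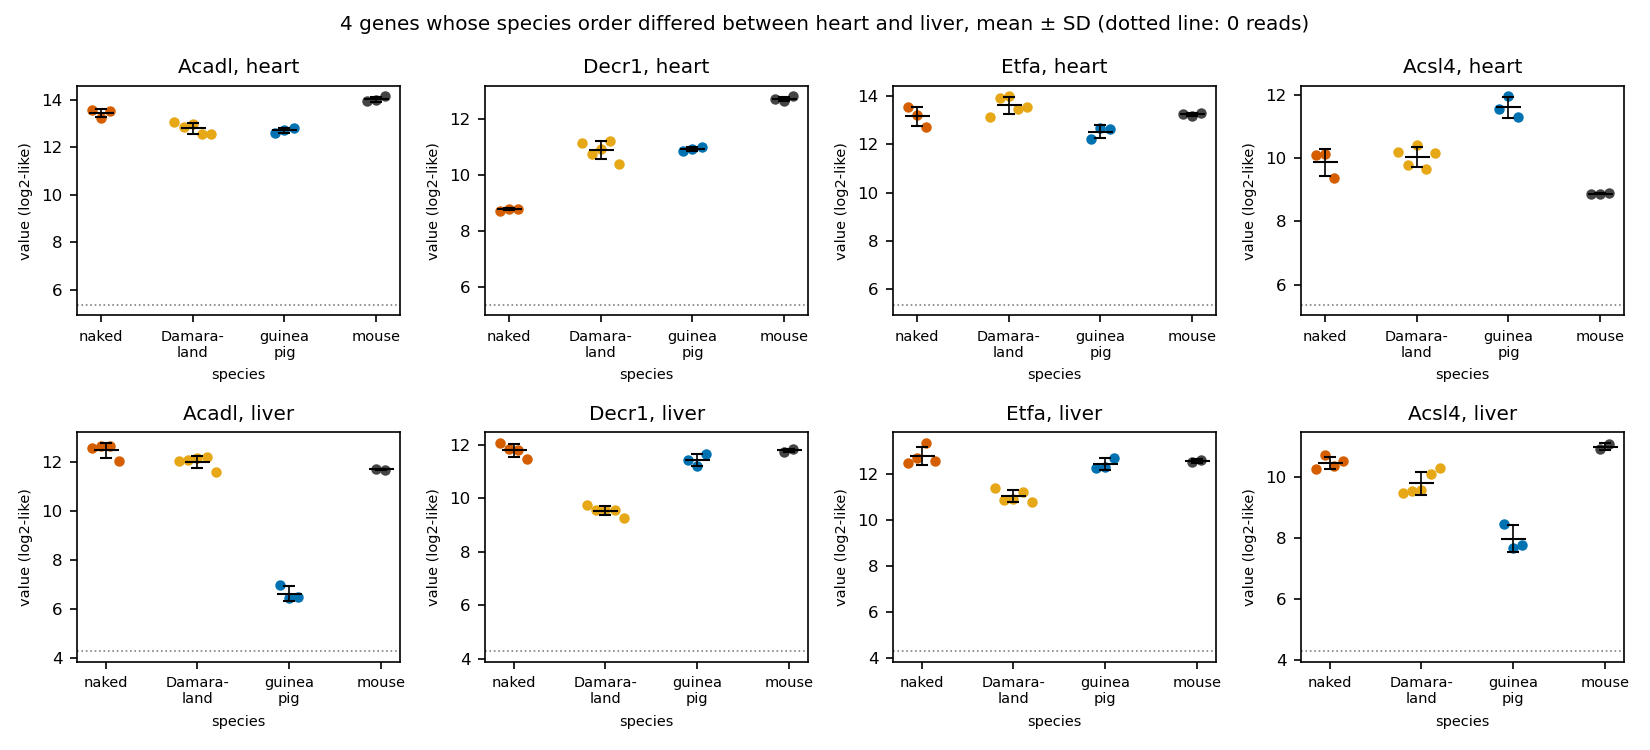
Deposited values (log2-like, vertical axis) of Acadl, Decr1, Etfa and Acsl4 by species in heart (top) and liver (bottom); points are libraries, bars mean ± SD, and the dotted line is the value of 0 reads. Guinea pig is highest for Acsl4 in heart and lowest in liver, and lowest by far for Acadl in liver.

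A list of 45 further genes, covering acyl transfer, uptake and activation, branched-chain dehydrogenases, peroxisomal steps, ketone bodies, regulators and other targets of PPARalpha, held 39 in the tables, of which 39 were tested in heart and 37 in liver. The shares of all genes tested to set beside the counts are those given above for each contrast, 14.2% to 21.1% in 1 direction. In heart naked mole-rat had 5 higher and 10 lower than guinea pig and 7 higher and 18 lower than mouse, Damaraland mole-rat 6 higher and 9 lower than guinea pig and 7 higher and 16 lower than mouse, naked mole-rat 10 higher and 7 lower than Damaraland mole-rat, and guinea pig 6 higher and 12 lower than mouse. In liver the counts in the same order of pairs were 13 higher and 8 lower, 7 higher and 13 lower, 6 higher and 7 lower, 12 higher and 13 lower, 11 higher and 8 lower, and 9 higher and 15 lower. Of 39 genes, 46.2% were lower in naked mole-rat than in mouse heart beside 20.2% of all genes tested, 41.0% in Damaraland mole-rat beside 18.0% and 30.8% in guinea pig beside 16.9%. In liver these shares of 37 genes were 35.1% beside 20.1%, 35.1% beside 18.4% and 40.5% beside 18.4%. The shares higher than mouse, in the same order of species, were 17.9% beside 18.0%, 17.9% beside 16.9% and 15.4% beside 15.2% in heart. In liver they were 18.9% beside 21.1%, 32.4% beside 20.9% and 24.3% beside 18.8%. Of the genes that PPARalpha drives outside the pathway (5 of 7 in the tables), naked mole-rat heart had 4 lower than mouse, Damaraland heart 5 and guinea pig heart 4, with 0 higher. Against guinea pig heart naked mole-rat heart had 0 higher and 0 lower of this list, and Damaraland heart 0 higher and 1 lower. In liver, where 4 were tested, it gave 1 higher and 2 lower than mouse in naked mole-rat, 1 higher and 2 lower in Damaraland mole-rat and 1 higher and 1 lower in guinea pig.

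The 3 further genes called in the most pairs were Fabp5, a fatty acid binding protein of skin and other tissues (11 of 12), Cpt1c, a form of the transferase best known from brain (10 of 12), and Crot, the octanoyltransferase of peroxisomes (10 of 12). Fabp5 means were 10.34 ± 0.04 in the naked mole-rats, 9.08 ± 0.34 in the Damaraland mole-rats, 11.52 ± 0.36 in the guinea pigs and 8.81 ± 0.07 in the mice in heart. Guinea pig hearts were highest, 2.71 (SE 0.21, adjusted p = 1.60e-08) above mouse. In liver the means were 8.50 ± 0.29 in the naked mole-rats, 7.33 ± 0.28 in the Damaraland mole-rats, 5.80 ± 0.10 in the guinea pigs and 10.10 ± 0.30 in the mice, and guinea pig was lowest, -4.30 (SE 0.24, adjusted p = 1.21e-10) from mouse. Cpt1c means in heart were 7.50 ± 0.36 in the naked mole-rats, 6.24 ± 0.12 in the Damaraland mole-rats, 8.68 ± 0.19 in the guinea pigs and 6.25 ± 0.46 in the mice, and in liver 7.54 ± 0.23 in the naked mole-rats, 4.36 ± 0.15 in the Damaraland mole-rats, 9.42 ± 0.17 in the guinea pigs and 5.23 ± 0.46 in the mice. Guinea pig was highest in both tissues and naked mole-rat next, 3.18 (SE 0.17, adjusted p = 3.01e-11) above Damaraland liver, which was near the value of 0 reads. Crot means in heart were 7.51 ± 0.19 in the naked mole-rats, 10.79 ± 0.22 in the Damaraland mole-rats, 8.74 ± 0.23 in the guinea pigs and 9.47 ± 0.12 in the mice. Damaraland hearts were highest and naked mole-rat hearts lowest, a difference of -3.28 (SE 0.16, adjusted p = 3.72e-11). In liver they were 9.57 ± 0.26 in the naked mole-rats, 9.65 ± 0.20 in the Damaraland mole-rats, 11.44 ± 0.31 in the guinea pigs and 13.48 ± 0.11 in the mice, with both mole-rats below both outgroups, naked mole-rat -3.91 (SE 0.21, adjusted p = 5.03e-11) and Damaraland mole-rat -3.83 (SE 0.20, adjusted p = 4.78e-11) from mouse.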

How the data were processed

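Total RNA depleted of ribosomal RNA was sequenced from 14 hearts and 14 livers, per the labels' protocols. The authors deposited 1 table per tissue of variance-stabilised expression per gene, on a scale close to log2. The submitters' processing notes name cutadapt, Salmon 013.1, DESeq2 and GRCm38 without role or order. How genes were matched across species is not given in the sources used here. The tables' 26 columns of other series were not used. Of 13928 rows, 13921 were matched to a symbol. Undone, the transform returned whole reads for 100% of values, to within 1e-6. They gave the depths (4089633 to 26985779) and a count-based alternative.

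limma 3.58.1 in R 4.3.3 was fitted per tissue to the deposited values, with a coefficient per species and variances moderated along a trend. Benjamini-Hochberg adjustment ran over all genes tested, those with a mean at least 1 above the value of 0 reads (10667 in heart, 10887 in liver). Calls needed an adjusted p under 0.05 and a difference of at least 1. Fits were tested on simulated data. Groups came from the labels, which name separate animals. Members and gene lists were chosen with earlier results of these data known. Values in every library are given for Cpt1a, Cpt1b, Cd36, Fabp3, Acadl, Acadm, Acadvl, Hadha, Hadhb, Ppara, Bdh1, Oxct1 and Acat1, for members called in 1 direction in each of the 4 mole-rat to outgroup contrasts, for members called against each of the other 3 species in 1 direction, and for the largest called difference in each direction per contrast. Of the further genes, the 3 called in most of 12 contrasts are named. Alternatives were no minimum difference, no filter, median centring, no variance trend, a replicate block, voom on recovered reads and leaving out each library.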

Additional observations from a re-analysis of the deposited data

Results flagged for a closer look

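Among 99 tests of 33 genes in the groups of 4 or more libraries, 9 set 1 library apart from the rest of its group by Dixon's ratio, and chance alone sets apart about 1 in 20. Bdh1 was 11.25 in Damaraland heart replicate 4, where the others ran from 11.88 to 12.02. Acadl was 12.02 in naked mole-rat liver replicate 4, where the others ran from 12.56 to 12.67. Acad11 was 11.75 in naked mole-rat liver replicate 4, where the others ran from 12.11 to 12.18. Hsd17b4 was 13.42 in naked mole-rat liver replicate 3, where the others ran from 12.70 to 12.76. Fabp3 was 8.20 in naked mole-rat liver replicate 1, where the others ran from 8.69 to 8.72. Acat1 was 13.92 in naked mole-rat liver replicate 3, where the others ran from 12.67 to 12.73. Acadl was 11.59 in Damaraland liver replicate 5, where the others ran from 12.05 to 12.19. Hadha was 11.77 in Damaraland liver replicate 5, where the others ran from 12.19 to 12.31. Acox3 was 6.75 in Damaraland liver replicate 3, where the others ran from 9.15 to 9.93. Naked mole-rat liver replicates 3 and 4 each gave 2 of these, as did Damaraland liver replicate 5.

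In 15 pairs of a member and a contrast, the member was called in opposite directions in heart and liver, with no overlap of the groups in either tissue. Over all members and contrasts this is 7.58%, and over all genes tested in both tissues 1.95% were called in opposite directions. The difference between the tissues was not tested. For naked mole-rat minus guinea pig, Acsl4 differed by -1.73 in heart and 2.48 in liver. For naked mole-rat minus mouse, Hadh differed by -2.27 in heart and 1.03 in liver, Echs1 differed by -1.19 in heart and 2.83 in liver and Fabp3 differed by -1.91 in heart and 2.95 in liver. For Damaraland mole-rat minus guinea pig, Etfa differed by 1.09 in heart and -1.40 in liver, Acox2 differed by -3.00 in heart and 1.87 in liver and Acsl4 differed by -1.55 in heart and 1.82 in liver. For Damaraland mole-rat minus mouse, Acsl4 differed by 1.17 in heart and -1.19 in liver and Bdh1 differed by 1.92 in heart and -1.41 in liver. For naked mole-rat minus Damaraland mole-rat, Echs1 differed by -1.54 in heart and 1.11 in liver and Decr1 differed by -2.12 in heart and 2.25 in liver. For guinea pig minus mouse, Acadm differed by -2.80 in heart and 1.23 in liver, Echs1 differed by -1.26 in heart and 1.34 in liver, Acsl4 differed by 2.72 in heart and -3.01 in liver and Fabp3 differed by -2.22 in heart and 1.36 in liver. Acsl4 gave 4 of the 15, Echs1 3 and Fabp3 2.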

How the results depend on the processing

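No called member difference reversed under any alternative run. With no minimum difference, called members rose from 11 to 22 between naked mole-rat and guinea pig heart, from 16 to 27 between naked mole-rat and mouse heart, from 14 to 23 between Damaraland mole-rat and mouse heart, from 15 to 24 between Damaraland mole-rat and mouse liver, and from 10 to 21 between the mole-rat livers. No share of all genes was computed for this or the other alternatives, so their member counts are not read against one. In heart, members called in each of the 4 mole-rat to outgroup contrasts, 1 as reported (Oxct1), were 3 with no minimum difference (Acsl5 and Bdh1 added), 2 after median centring and 2 with voom on recovered reads (Bdh1 added), and 0 with the replicate block, where Oxct1 of Damaraland mole-rat from guinea pig was -0.99; the cause was not tested. Leaving out 1 library gave counts for the pairs naked mole-rat and guinea pig, naked mole-rat and mouse, Damaraland mole-rat and guinea pig, Damaraland mole-rat and mouse, naked mole-rat and Damaraland mole-rat, and guinea pig and mouse of 10 to 13, 16 to 17, 16 to 18, 12 to 16, 12 to 15, 21 to 23 in heart and 18 to 19, 14 to 17, 13 to 16, 14 to 16, 9 to 12, 16 to 17 in liver, and all-4 counts of 1 to 2 and 2 to 4. Of 180 called member differences, 159 were called in every such fit. Without a mouse liver the lone library was assumed to vary like the other groups. Other alternatives kept each count within 1.5 times the reported one. Median centring moved the median of all genes by less than 0.1.

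Replicate numbers belong to different animals in different species and share only a number: same-numbered libraries deviated together with a mean correlation of -0.00017 over 18 pairs in heart and 0.00078 over 16 in liver. With the replicate block, members called were 11, 16, 17, 12, 15, 21 in heart and 19, 16, 15, 14, 11, 16 in liver in the order of pairs above. The block ended 6 calls: Cpt2 (-0.85) and Fabp3 (-0.58) of Damaraland mole-rat from mouse heart, Oxct1 in heart as above, Hadh of naked mole-rat from mouse liver (0.96), and in Damaraland liver Decr2 from guinea pig (0.90) and Oxct1 from mouse (-0.96). Naked mole-rat heart replicate 3 was the shallowest library, and calls of Cpt1b, Fabp3 and Oxct1 in liver and Acox2 and Decr2 in heart rest on few reads in some species.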

Other observations

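Levels of a gene in heart and liver can be set side by side as CPM of nuclear genes (from recovered reads), with the limit that the tables were made separately and no test was run. In the order naked mole-rat, Damaraland mole-rat, guinea pig and mouse, Oxct1 averaged 628, 910, 2425 and 2209 in heart and 2.38, 3.87, 13.12 and 11.4 in liver, so it was far higher in heart in each species. Cpt1b averaged 616, 562, 435 and 778 in heart and 18.2, 1.84, 1.6 and 0.617 in liver, and Fabp3 1095, 1730, 820 and 3148 and 23.4, 3.83, 7.53 and 1.45, with the smallest gap between tissues in naked mole-rat. Cpt1a, the liver form, averaged 64.4, 105, 43.9 and 67.3 in heart and 279, 272, 181 and 746 in liver. Bdh1 was higher in liver than in heart in mouse (358 and 74.7), and lower in liver in guinea pig (32.6 and 123) and Damaraland mole-rat (126 and 263). Acadl of guinea pig was at 569 in heart and 5.17 in liver, where the other species had 383, 305 and 260. Acox2 averaged 89.5, 6.17, 102 and 0.57 in heart and 1147, 1141, 350 and 198 in liver. Reads of mitochondrial genes made up at most 0.03% in the Damaraland libraries and 2.88% to 26.9% in the others, and were left out of these values.

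Across the 33 members, the differences of a contrast in heart and in liver correlated weakly: Pearson's r was 0.37 for naked mole-rat and guinea pig, 0.31 for naked mole-rat and mouse, -0.03 for Damaraland mole-rat and guinea pig, 0.36 for Damaraland mole-rat and mouse, 0.24 for the mole-rats and -0.10 for the outgroups. Over the 10109 genes tested in both tissues r ran from 0.45 to 0.55. These are correlations across genes, which are not independent replicates, and most animals gave both tissues. The median SD of a member among hearts of 1 species was 0.25 in the naked mole-rats, 0.31 in the Damaraland mole-rats, 0.20 in the guinea pigs and 0.09 in the mice, and among livers 0.25, 0.30, 0.29 and 0.15. The widest SDs were those of Cpt1a in guinea pig liver (1.54), Acox3 in Damaraland liver (1.30) and Bdh1 in mouse heart (1.20).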
